A study of Mus musculus with 3 samples.

Results

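The 37 genes described here encode cytosolic and mitochondrial chaperones of the HSP70 and HSP90 systems, their co-chaperones, the heat shock transcription factor Hsf1 and the subunits of the cytosolic chaperonin TRiC. They were chosen by name, and their probes were found through the RefSeq accession that the array's design gives each probe. Of the 37 genes 35 had a probe, among 21613 genes with a symbol and a probe in the whole series, and 24 could be tested. All mice were male C57BL/6 animals, 8 weeks old and fed chow, and RNA was taken from the muscle that the labels call SOL, which is taken to be the soleus. Mice of the genotype Mettl21cLacZ/LacZ, called KO, were compared with wildtype mice, called WT, with 3 biological replicates of each. Each of the 3 arrays held 1 WT sample labelled with Cy3 and 1 KO sample labelled with Cy5. The dyes were never exchanged, so a probe's preference for a dye and the genotype cannot be told apart. The LacZ allele was homozygous in the KO mice, and the labels do not say whether the WT mice were littermates.

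HSP70 proteins bind exposed hydrophobic stretches of unfolded proteins in a cycle driven by ATP. J-domain proteins start that cycle, and exchange factors of the HSP110 and BAG families end it by removing ADP. HSP90 takes over partly folded clients through adaptors such as Stip1, and TRiC is a ring-shaped chamber that folds actin and tubulin. In skeletal muscle these systems fold myosin and maintain the sarcomere, and Hsf1 drives many of their genes from heat shock elements when proteins unfold. Relatives of the lysine methyltransferase METTL21C methylate chaperone proteins, and the values below ask whether the chaperone transcripts differed without it.

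Heat shock elements are inverted repeats of GAA and TTC, and the members whose promoters hold such repeats are shown because these are the letters that Hsf1 is known to read. RefSeq promoters of build GRCm38.p6, each running from 250 bases before to 50 bases after a gene's start, were held for 31 of the 37 genes. None was held for Cct4, Hsf1, Hsp90aa1, Hsp90ab1, Hspa9 or St13. Both strands were searched for GAANNTTCNNGAA and its complement TTCNNGAANNTTC, which overlap the shorter pairs GAANNTTC and TTCNNGAA. The long element was found in 5 of the 31 members, or 16.1%, against 0.603% of all 32851 promoters and 0.662% of all 27025 genes in the table. Those members were Hsph1, Hspd1, Hspe1, Dnajb6 and Chordc1. The capitals below mark the element, and each window of 30 bases is written on the strand of its gene.

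Hspe1 (chr1:55088053-55088082, plus strand): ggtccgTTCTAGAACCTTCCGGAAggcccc
Hspd1 (chr1:55088053-55088082, minus strand): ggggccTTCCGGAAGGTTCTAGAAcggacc
Dnajb6 (chr5:29735843-29735872, plus strand): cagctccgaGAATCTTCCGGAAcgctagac
Hsph1 (chr5:149636280-149636309, minus strand): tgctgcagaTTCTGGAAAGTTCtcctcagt
Chordc1 (chr9:18292259-18292288, plus strand): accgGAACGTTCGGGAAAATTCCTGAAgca

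Hspd1 and Hspe1, which encode the wall and the lid of the mitochondrial chaperonin, are transcribed away from each other, and their windows are the same stretch read from either strand. The shorter pair GAANNTTC was found in 12 of the 31 members, or 38.7%, against 9.04% of all genes. The pair TTCNNGAA was found in 8 of 31, or 25.8%, against 9.60%. The stress-inducible HSP70 genes Hspa1a and Hspa1b held the same pair in the same letters, shown here with that pair in capitals.

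Hspa1a (chr17:34972242-34972271, minus strand): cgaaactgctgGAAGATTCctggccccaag
Hspa1b (chr17:34959324-34959353, minus strand): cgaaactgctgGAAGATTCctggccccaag

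The promoters of Hspa1a and Hspa1b were identical at 296 of 300 bases (98.7%), so these near-identical copies differ at 4 bases of this window. Hspa1b had no matching probe on the array, and a probe for one of the copies may also bind transcripts of the other. A match is a string of letters and does not show that Hsf1 binds there.

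The checks on the series were as follows. Mettl21c was lower in every KO sample, with processed signals of 7527, 3677 and 4486 in WT and 200.4, 32.3 and 45.4 in KO. Its log2 ratio of KO over WT averaged -2.45 (SD 0.48, n = 3 arrays, limma adjusted p = 0.0175) on the offset scale. The KO signal was well above background on 1 of the 3 arrays, so on the others its size has only a bound and is set by the offset. Of 8 markers of skeletal muscle fibres 7 were well above background in all 6 samples. Of the slow-fibre markers 5 of 6 tested were positive (median 0.22), with the calcium pump gene Atp2a2 at -1.14 (SD 0.41, limma adjusted p = 0.081), and of the fast-fibre markers 2 of 6 (median -0.16), with Atp2a1 at -0.65 (SD 0.45, adjusted p = 0.159). Of 5 tested adipocyte markers 4 were positive (median 0.13), and Lep and Cidec were well above background in no sample. Every KO signal of Fabp4 and Plin1 lay above every WT signal, a pattern found in 2.68% of all genes. The reverse held for the markers Atp2a1, Atp2a2, Des, Mylpf and Cd68, and for 3.79% of all genes. The adipocyte markers summed to 4964 to 7713 in WT and 7895 to 8732 in KO. Of 9 markers of macrophages and leukocytes 6 could be tested, all with a negative mean ratio (median -0.24), and Lyz2 and Ptprc were well above background in no sample. Their summed signal ran from 7760 to 15750 in WT and from 6997 to 10846 in KO. The 3 red blood cell markers that could be tested had positive ratios, with a median of 0.21 and the alpha globin Hba-a1 at 0.77 (SD 0.34, limma adjusted p = 0.088), the highest of all genes tested, and summed signals of 11279 to 18652 in WT and 13995 to 32908 in KO. The part of these fibres and cells in the chaperone values was not tested, and in whole muscle fewer cells of a type and less RNA per cell cannot be told apart.

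No chaperone gene passed the test. Of the 24 tested members 9 had a positive and 15 a negative mean log2 ratio of KO over WT, with a median of -0.02, beside a median of -0.00 over all 7424 genes or unnamed transcripts tested. The members ran from -0.20 for Stub1 to 0.33 for Hsp90ab1. At an adjusted p of 0.05 in limma 0 of 24 members were called, where 0.0404% of all genes were, which is 3 genes including Mettl21c. At an unadjusted p under 0.05 limma gave 2 members higher in KO, Hsp90ab1 and Dnaja4, where 5.9% of all genes lay, and 1 lower, Hsf1, where 7.53% lay. These 2 and 1 of 24 are close to the shares of all genes.

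Direction across arrays gave a like picture. The ratio was positive on all 3 arrays for 3 of 24 members (Hsp90ab1, Bag1 and Cct5), against 17.5% of all genes. It was negative on all 3 for 5 of 24 (Bag2, Stip1, Stub1, Hsf1 and Cct4), against 18.3%. The members' signs therefore agreed across arrays about as often as those of all genes. The median of the members was -0.02, -0.07 and 0.01 on arrays 1 to 3, and that of all genes -0.01, -0.02 and 0.02.

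**Figure D1:**
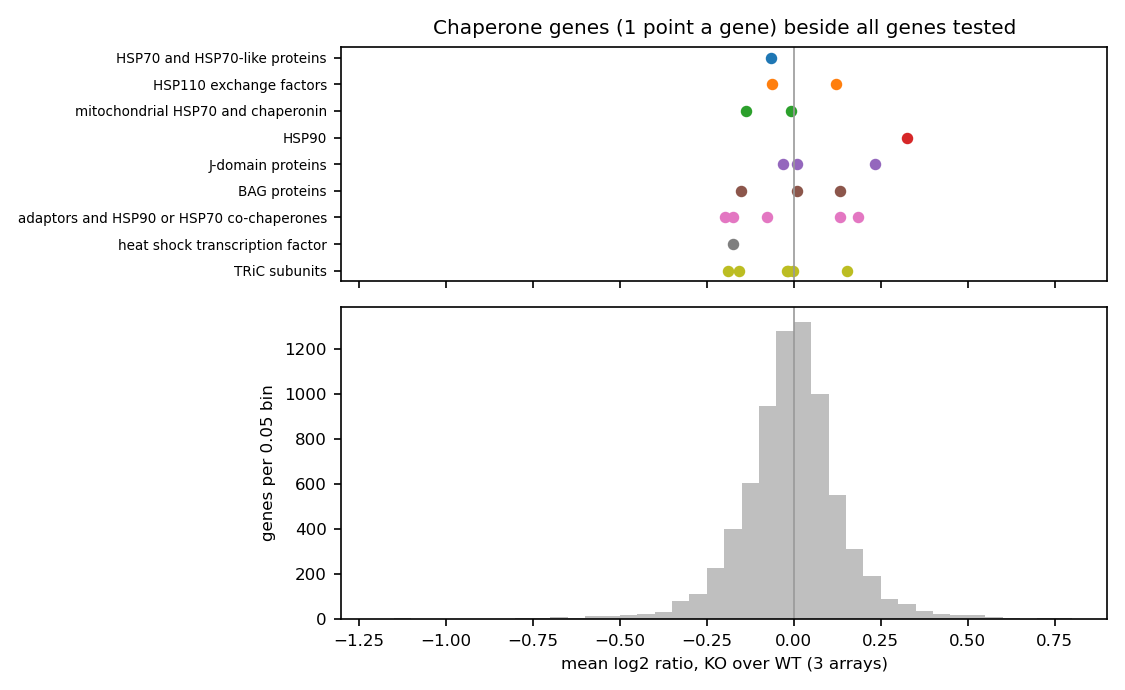
Mean log2 ratio of KO over WT of the tested genes, with the 24 chaperone members set against all 7424 genes or unnamed transcripts tested. The members lie between -0.20 and 0.33, on both sides of 0 like the histogram of all genes (bins of 0.05), and 1 gene, Mettl21c, falls outside the plotted range.

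The precision can be read from the intervals. The 95% interval of the mean ratio, from limma's moderated error over 3 arrays, contained 0 for 21 of the 24 members, and it reached neither 1 nor -1 for any of them. The lowest lower bound was -0.40 and the highest upper bound 0.51, which are 0.759-fold and 1.42-fold on this scale. Ratios were computed after adding an offset of 50 to the intensities, which shrinks the ratios of dim probes, so these bounds hold on the offset scale. The intervals cover the spread between arrays under the main normalisation and not the choice of normalisation. For some members the processed mean lay outside the interval, as for Bag1 (-0.09 beside -0.03 to 0.30) and Ahsa1 (-0.44 beside -0.28 to 0.13). The median SD of the members between arrays was 0.17 beside 0.12 for all genes, and 16 of 24 members exceeded the median of all genes, a difference that was not tested.

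**Figure D2:**
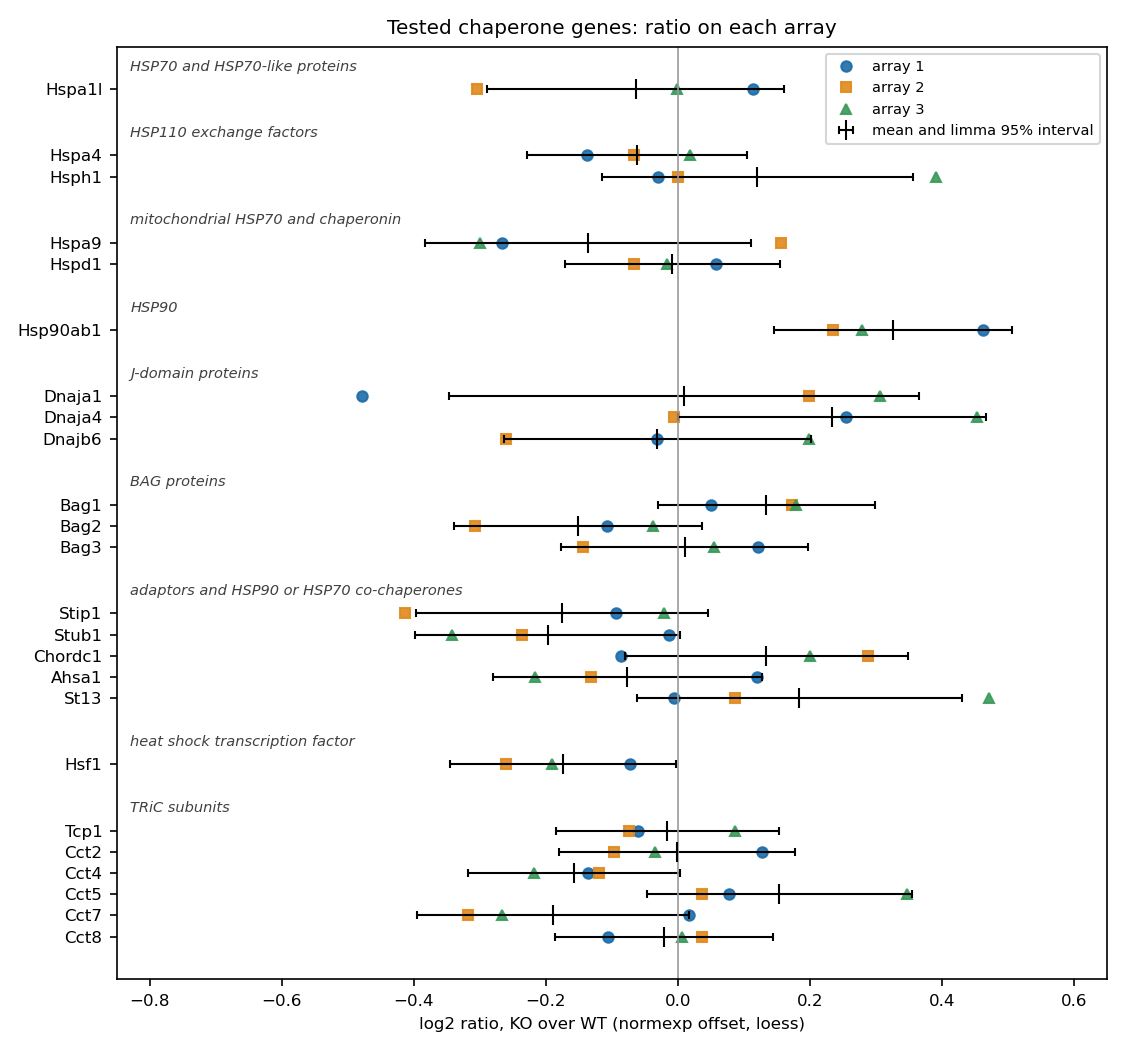
Log2 ratio of KO over WT of each tested member on each of the 3 arrays (points) with the mean and its 95% interval from limma, ordered by chaperone class. The intervals of Hsp90ab1 and Dnaja4 lie above 0, the latter barely, that of Hsf1 lies below 0, and the 3 arrays of Dnaja1 lie farthest apart.

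Among the cytosolic HSP70 proteins the only member that could be tested was Hspa1l, whose gene lies in the same cluster as Hspa1a and Hspa1b. Its processed signals, the scanner software's background-subtracted and dye-normalised intensities, were 1710, 2151 and 1710 in WT and 2014, 1745 and 1941 in KO. The groups overlapped, with KO above WT on arrays 1 and 3 and below it on array 2. Its log2 ratios were 0.11, -0.30 and -0.00, with a mean of -0.06 (SD 0.22, limma adjusted p = 0.821).

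Of the HSP110 proteins, which remove ADP from HSP70, Hsph1 had processed signals of 1573, 1459 and 1548 in WT and 1612, 1599 and 1966 in KO. Every KO signal lay above every WT signal, which held for 1 of 24 members and for 2.68% of all genes. The KO signals of arrays 1 and 2 cleared the highest WT signal by little, and after loess the ratios were -0.03, -0.00 and 0.39, so that array 3 carried the mean of 0.12 (SD 0.23, limma adjusted p = 0.663). Another tested probe of Hsph1 gave 0.08 (SD 0.12). Hspa4, the constitutive member, had a mean of -0.06 (SD 0.08) and 0.03 (SD 0.03) by its other tested probe.

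Hspa9, the mitochondrial HSP70 that pulls proteins through the inner membrane, had processed signals of 3367, 3951 and 6006 in WT and 3079, 5025 and 5137 in KO. The groups overlapped, and the KO sample was the higher of the pair on array 2 alone. Its ratios were -0.27, 0.16 and -0.30, with a mean of -0.14 (SD 0.25, limma adjusted p = 0.631). Hspd1, the chaperonin wall, differed little between arrays and had a mean of -0.01 (SD 0.06).

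Hsp90ab1, the constitutive cytosolic HSP90, had the highest mean ratio and the smallest p of the members. Its processed signals were 15505, 18963 and 31041 in WT and 19703, 21295 and 33483 in KO. The groups overlapped because all signals were higher on array 3, but within each array the KO sample was the brighter. The log2 ratios were 0.46, 0.24 and 0.28, with a mean of 0.33 (SD 0.12, 95% interval 0.15 to 0.51), or 1.25-fold. In limma the unadjusted p was 0.0039 and the adjusted p was 0.150, so it did not pass over all genes. Without any 1 array the mean ran from 0.26 to 0.37. The processed signals, to which no loess was fitted here, gave 0.35, 0.17 and 0.11 (mean 0.21, SD 0.12). Of 20 alternatives 1 changed the sign, in which the ratios were only centred on the tested probes, without loess, and the mean was -0.26 (limma adjusted p = 0.072).

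The J-domain proteins had SDs from 0.23 to 0.43 between arrays over the 3 that could be tested. Dnaja4, a cytosolic partner of HSP70, had processed signals of 4115, 4005 and 4485 in WT and 4785, 4081 and 6388 in KO. Arrays 1 and 3 showed the higher KO signal and array 2 almost none, with ratios of 0.25, -0.01 and 0.45. The mean was 0.23 (SD 0.23, 95% interval 0.00 to 0.47), with an unadjusted p of 0.049 and an adjusted p of 0.370 in limma. It was 0.12 without array 3, and -0.07 without loess. Dnaja1, a farnesylated relative that works with HSP70, had opposite ratios of -0.48, 0.20 and 0.31, which averaged 0.01 (SD 0.43). Dnajb6, which holds aggregation-prone proteins in solution and is mutated in a limb-girdle muscular dystrophy, stood at -0.03 (SD 0.23). Its WT signal was well above background on 2 arrays, and its other tested probe gave 0.04 (SD 0.05).

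The BAG proteins release substrates from HSP70. Bag2, which restrains the ubiquitin ligase encoded by Stub1, had processed signals of 1203, 1260 and 1380 in WT and 1118, 1179 and 1281 in KO. The groups overlapped, and the KO sample was slightly the dimmer on each array. Its ratios were -0.11, -0.31 and -0.04, with a mean of -0.15 (SD 0.14, limma adjusted p = 0.474). Bag3, which with HSP70 and HSPB8 clears damaged filamin at the Z-disc, had a mean of 0.01 (SD 0.14). Bag1 was the brightest member, with signals of 41100 to 61321, and stood at 0.13 (SD 0.07, limma adjusted p = 0.469). Its direction rests on the processing, and loess is not the only step that matters. Of 20 alternatives 5 changed the sign, and 0 of these left out an array. The ratio was -0.57 without loess (limma adjusted p = 0.0126) and -0.09 (SD 0.03) in the processed signals. The other tested probe of Bag1 gave 0.18 (SD 0.20), with ratios of 0.34, 0.24 and -0.04 on arrays 1 to 3.

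Of the adaptors and co-chaperones, 2 of 5 had a positive mean. Stub1, the ubiquitin ligase that sends HSP70 clients to the proteasome, had processed signals of 2490, 2766 and 2969 in WT and 2515, 2338 and 7686 in KO. The KO signal of array 3 stood far from the rest, at a processed log2 ratio of 1.37, while the ratio from the spot medians after loess was -0.34 on that array. The 3 ratios after loess were -0.01, -0.24 and -0.34, with a mean of -0.20 (SD 0.17, limma adjusted p = 0.378), and the processed signals averaged 0.38 (SD 0.87). The 2 ways of computing the ratio thus gave opposite signs for this gene. Stip1, which passes clients from HSP70 to HSP90, stood at -0.18 (SD 0.21), and between -0.25 and -0.06 without any 1 array. St13, which holds HSP70 in its ADP-bound form, stood at 0.18 (SD 0.25), at 0.04 without array 3 and at -0.25 without loess. Chordc1, an HSP90 co-chaperone, stood at 0.13 (SD 0.20).

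Ahsa1, which stimulates the ATPase of HSP90, is given in full because its processed signals stood apart, a choice made after its values were seen. They were 13248, 17662 and 28894 in WT and 11872, 12934 and 17816 in KO. The KO sample was the dimmer on each array, by log2 ratios of -0.16, -0.45 and -0.70 (mean -0.44, SD 0.27, limma adjusted p = 0.453). After normexp and loess the ratios were 0.12, -0.13 and -0.22, with a mean of -0.08 (SD 0.17, limma adjusted p = 0.764), so most of the difference in the processed signals was not present in the loess ratios.

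Hsf1, the transcription factor that drives heat shock genes, had processed signals of 3211, 4425 and 5447 in WT and 3160, 3501 and 4235 in KO. The groups overlapped, and the KO sample was the dimmer on each array. Its ratios were -0.07, -0.26 and -0.19, with a mean of -0.17 (SD 0.10, 95% interval -0.35 to -0.00). The unadjusted p was 0.047 and the adjusted p was 0.361 in limma. The mean ran from -0.23 to -0.13 without any 1 array, and the processed signals gave -0.24 (SD 0.19). The heat shock elements listed above can be set beside this value. The 4 tested members with a long element ran from -0.03 to 0.13 with a median of 0.06, and the 15 tested members whose promoters lacked it from -0.20 to 0.23 with a median of -0.02. The ranges overlapped, and no test was made between them. The tested members Cct4, Hsf1, Hsp90ab1, Hspa9 and St13 are in neither set, since no promoter was held for them. Among them is Hsp90ab1, the member with the highest mean ratio.

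Of the 8 TRiC subunits 6 could be tested, 1 with a positive and 5 with a negative mean, and their median was -0.02. Cct7 had the largest ratio of the class. Its processed signals were 2259, 2581 and 1712 in WT and 2197, 2282 and 1040 in KO, overlapping between groups and lower in KO within each array. The ratios were 0.02, -0.32 and -0.27, with a mean of -0.19 (SD 0.18, limma adjusted p = 0.407).

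Cct4 was singled out after its values were seen, because it was the only member whose processed KO signals all lay below every WT signal, a pattern found in 3.79% of all genes. Its signals were 880, 955 and 1065 in WT and 662, 639 and 721 in KO. The ratios were -0.14, -0.12 and -0.22, with a mean of -0.16 (SD 0.05, limma adjusted p = 0.378), and the processed signals gave -0.52 (SD 0.09, limma adjusted p = 0.407). The gap between the 2 sizes narrowed with a smaller offset, since an offset of 16 gave -0.23. Of the other tested subunits, Cct5 stood at 0.15 (SD 0.17), Cct2 at -0.00 (SD 0.12), Tcp1 at -0.02 (SD 0.09) and Cct8 at -0.02 (SD 0.07). In the processed signals these were 0.28 (SD 0.07) for Cct5, 0.07 (SD 0.15) for Cct2, -0.37 (SD 0.31) for Tcp1 and 0.13 (SD 0.15) for Cct8. In those signals the KO sample of Tcp1 was the dimmer on each array. A TRiC ring holds one copy of each subunit. The ratios of the tested subunits ran from -0.19 to 0.15 after loess and from -0.52 to 0.28 in the processed signals. No subunit passed the test on either scale.

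Class by class, the medians on the log2 scale were -0.06 for the HSP70 proteins (1 tested of 5 listed), 0.03 for the HSP110 proteins (2 of 3) and -0.07 for the mitochondrial pair (2 of 3). They were 0.33 for HSP90 (1 of 2), 0.01 for the J-domain proteins (3 of 6), 0.01 for the BAG proteins (3 of 3) and -0.08 for the adaptors and co-chaperones (5 of 6). Hsf1 alone gave -0.17 and TRiC -0.02 (6 of 8). In the processed signals the medians were 0.04 for HSP70, 0.04 for HSP110, 0.06 for the mitochondrial pair and 0.21 for HSP90. They were 0.25 for the J-domain proteins, -0.09 for BAG, 0.24 for the adaptors and co-chaperones, -0.24 for Hsf1 and -0.12 for TRiC. The HSP70, mitochondrial, BAG and adaptor medians thus had opposite signs in these signals and after loess. The adaptor median in the processed signals includes Stub1 at 0.38 (SD 0.87), a mean carried by its ratio of 1.37 on array 3. The values of HSP90, HSP70 and Hsf1 rest on 1 gene each. No test was made between classes.

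The processed signals of the members above, plotted by sample, show levels that differed between arrays in both genotypes. For Hsp90ab1 both samples of array 3 were brighter than all others, and the KO sample was the brighter within each array.

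**Figure D3:**
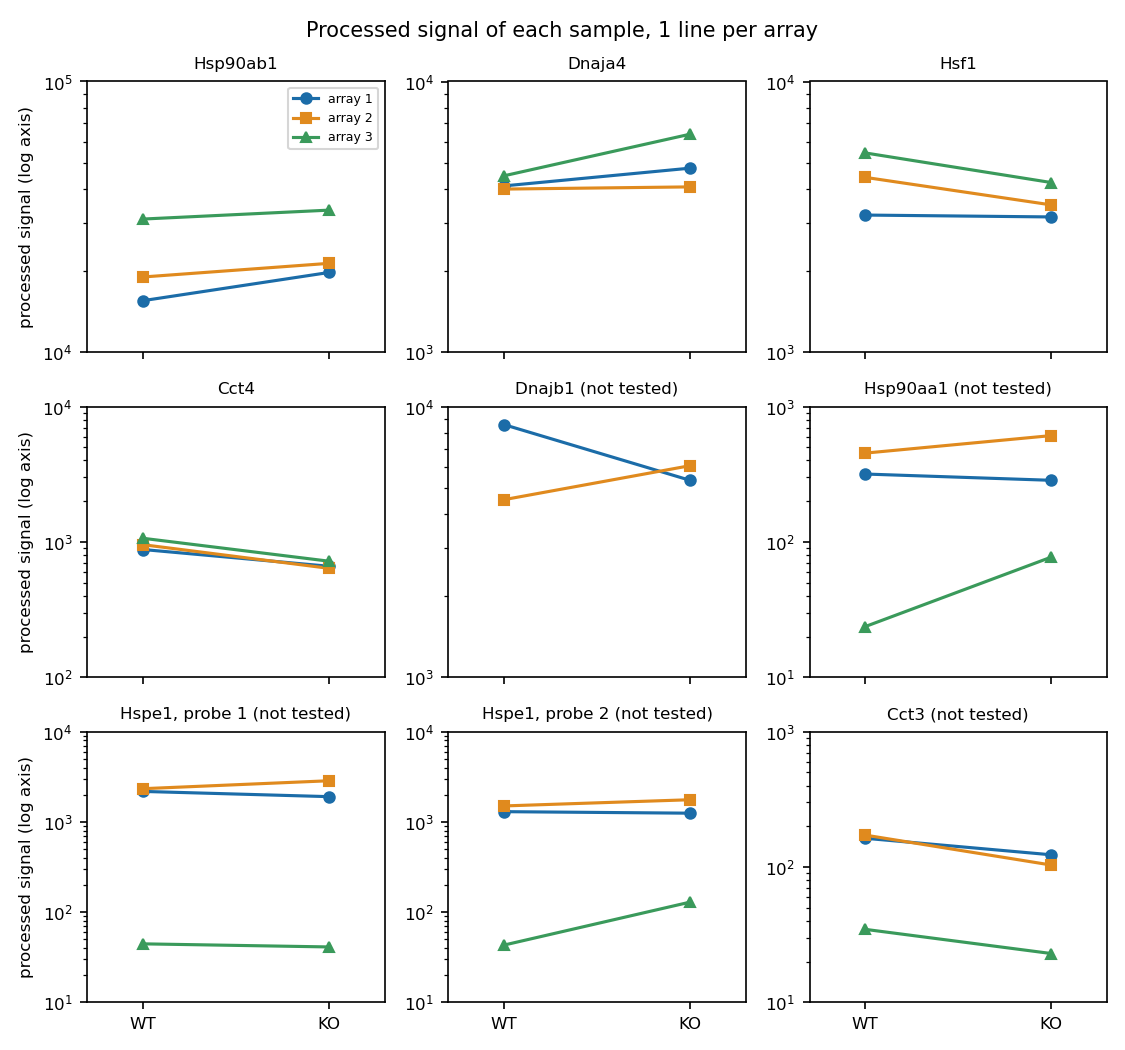
Processed signals (log scale, arbitrary units) of 8 members in the 3 WT and 3 KO samples, with a line joining the samples of one array and the marked spot of Dnajb1 left out. The lines of Cct4 fall from WT to KO on all 3 arrays and those of Hsp90ab1 rise on all 3, while the groups of Hsp90ab1 overlap.

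Of the 35 genes with a probe 11 could not be tested. Dnajb1, the canonical HSP40 partner of HSP70, was left out for an outlier flag on array 3. Its processed signals on arrays 1 and 2 were 8575 and 4532 in WT and 5342 and 6049 in KO, and its ratios of -0.58 and 0.32 had opposite signs. With the marked spot kept the mean was -0.09 (SD 0.46, limma adjusted p = 0.860). The other 10 were not well above background on all arrays in either channel. They were Hspa1a, Hspa2, Hspa12b, Hspa4l, Hspe1, Hsp90aa1, Dnajb4, Unc45b, Cct3 and Cct6a.

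Several of these were bright on 2 arrays and dark on array 3 in both channels. The chaperonin lid gene Hspe1 had signals of 2178, 2335 and 44.6 in WT and 1906, 2858 and 41.2 in KO by one probe. A further probe of the gene repeated this pattern, with 1299, 1504 and 43.2 in WT and 1250, 1761 and 129 in KO. Array 3 was thus dark for Hspe1 by both of these probes and in both genotypes. The remaining probe of Hspe1 was dark on every array, with 20.2, 24.7 and 23.1 in WT and 21.6, 28.2 and 29.8 in KO. Hsp90aa1, the inducible HSP90, had 318, 453 and 23.7 in WT and 285, 611 and 77.2 in KO, and the TRiC subunit Cct3 had 163, 172 and 34.6 in WT and 123, 103 and 23.0 in KO. Across the array 1517 of 9581 probes bright in both channels on the other arrays were dark in both on array 3 (15.8%), against 36 of 7495 for array 1 (0.480%) and 20 of 7531 for array 2 (0.266%). Of the members' probes these were 4 of 32 on array 3 and 0 of 26 on each of the others. With arrays 1 and 2 alone, limma gave a mean of -0.10 for Hspe1 (SD 0.23, adjusted p = 0.742), 0.00 for Hsp90aa1 (SD 0.11, adjusted p = 0.996) and -0.08 for Cct3 (SD 0.04, adjusted p = 0.707). The same limma fit gave 0.16 for Hspa12b (SD 0.12, adjusted p = 0.453) and -0.13 for Dnajb1 (SD 0.64, adjusted p = 0.840). These values carry no weight from array 3.

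The stress-inducible Hspa1a was dim, with signals of 125, 83.3 and 81.5 in WT and 149, 43.7 and 40.8 in KO. It was well above background on 1 of the 3 arrays in each channel. Unc45b, the myosin chaperone of striated muscle, was also dim by its probe, with 31.5, 100.1 and 26.1 in WT and 32.1, 144 and 52.2 in KO. For both, a difference was not measurable at these signals.

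The sign of 9 of 24 members changed without loess and that of 7 in the processed signals, of 4 with an offset of 16, of 4 without background subtraction and of 0 with scale normalisation. Leaving out 1 array changed 3 to 6 signs. Without loess, with the arrays centred on the tested probes, the median of the members was -0.19 while that of all genes was -0.01, and 7 members were called. Those were Ahsa1, Bag1, Cct7, Hsf1, Hspa9, Stip1 and Stub1, all negative, in a setting that called 2658 of all 7424 genes. The processed signals, which carry the software's own dye normalisation, gave 14 positive and 10 negative members with a median of 0.055. No member passed in those signals. The 4 members with a mean log2 intensity of at least 9 (Hsp90ab1, Bag1, Ahsa1 and St13) had a median of 0.16 after loess, with 3 positive and Ahsa1 negative. The other 20 had a median of -0.03, with 6 positive. In the processed signals the same 2 sets had nearly equal medians, 0.059 and 0.055. The part of dye balance in this was not tested.

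**Figure D4:**
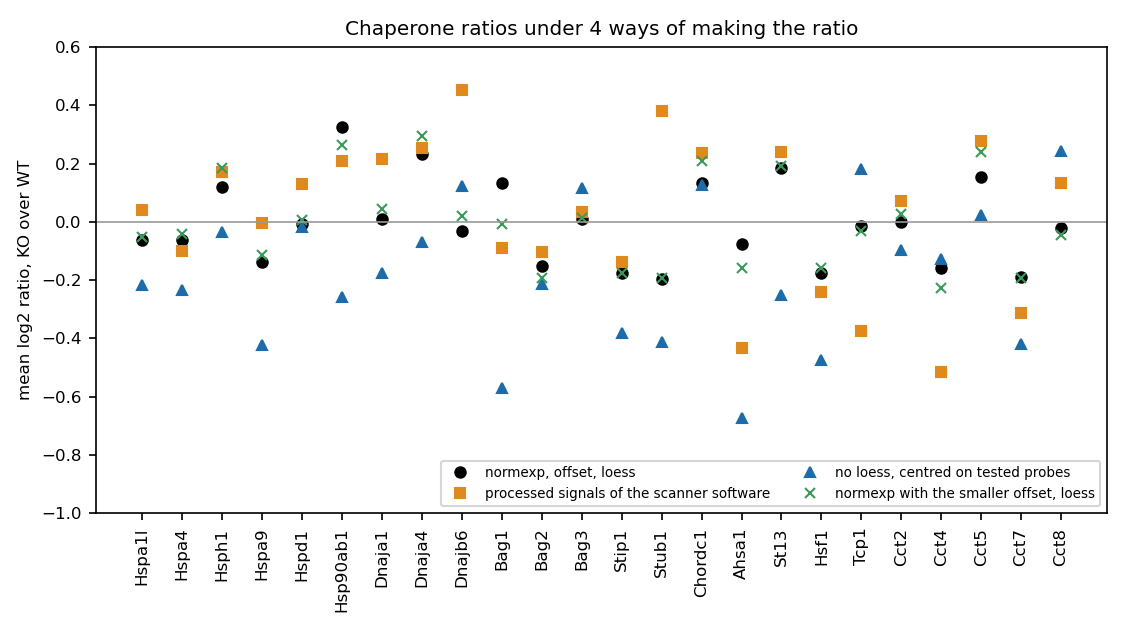
Mean log2 ratio of KO over WT of the members under 4 ways of computing it, with 1 column of points a gene. Hsp90ab1 falls from 0.33 to -0.26 without loess, and Hsf1 stays below 0 in all 4.

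Other chaperone genes were read from the same fit, from 7 further lists. Of 104 genes with a probe 59 could be tested, 23 with a positive and 36 with a negative mean, and 0 passed an adjusted p of 0.05 in limma. An unadjusted p under 0.05 was reached by 6 of the 59 higher in KO, where 5.9% of all genes lay, and by 10 lower, where 7.53% lay. Their median was -0.03.

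Hspa8, the constitutive HSP70 of the cytosol, had the smallest p among the other HSP70 relatives, of which 1 of 5 had a positive ratio. Its processed signals were 705, 1013 and 1111 in WT and 332, 235 and 565 in KO, so every KO sample lay below every WT sample. That pattern was found in 5 of the 59 other chaperone genes and in 3.79% of all genes. The reverse was found in 1 of the 59 and in 2.68% of all genes. The mean ratio of Hspa8 was -0.56 (SD 0.20, limma adjusted p = 0.088). It was -0.28 when its tested probes were averaged (adjusted p = 0.141), so probes other than the brightest lay nearer 0 on average. It was -0.94 with an offset of 16 (adjusted p = 0.0165) and -0.48 without array 3 (adjusted p = 0.036 over the same probes, and 0.108 over probes chosen on arrays 1 and 2). In limma Hspa8 also passed with robust trended moderation (adjusted p = 0.0044), with array weights (adjusted p = 0.0449) and without loess (-0.47, adjusted p = 0.0215). It did not pass in the processed signals (-1.39, limma adjusted p = 0.407). Hspbp1, an exchange factor for HSP70, stood at -0.32 (SD 0.11, adjusted p = 0.150).

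Of 11 further J-domain proteins 9 were negative and the median was -0.09. Dnajc8, which takes part in splicing, stood at -0.25 (SD 0.17, limma adjusted p = 0.292) and Dnajc9, a histone chaperone, at -0.21 (SD 0.14, adjusted p = 0.314). Of 17 further HSP90 co-chaperones 12 were negative, with a median of -0.03. Smyd1, a muscle methyltransferase that works with HSP90 and UNC45B on myosin, stood at -0.34 (SD 0.12, adjusted p = 0.135). Cdc37, which brings kinases to HSP90, stood at 0.29 (SD 0.19, limma adjusted p = 0.246), but at -0.02 in the processed signals and -0.48 without loess (adjusted p = 0.0151). With loess kept it was 0.10 with an offset of 16 and 0.02 without background subtraction. Its direction thus rests on loess, and its size also on the background correction.

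Of 11 mitochondrial chaperones and proteases 7 were positive and 4 negative, with a median of 0.02, beside 3647 positive and 3777 negative of all genes. Dnajc19 and Dnajc15, J-domain proteins of the import motor, stood at 0.36 (SD 0.02, limma adjusted p = 0.098) and 0.40 (SD 0.17, adjusted p = 0.129). Dnajc19 was 0.18 when its tested probes were averaged (limma adjusted p = 0.307), so probes other than the brightest lay nearer 0 on average. Dnajc15 was 0.20 in the processed signals and -0.23 without loess. Of 7 genes for prefoldin and tubulin-folding cofactors 3 were positive and 4 negative, with a median of -0.01. Pdrg1 stood at -0.26 (SD 0.18, adjusted p = 0.278) and Vbp1, a prefoldin subunit, at 0.19 (SD 0.19, adjusted p = 0.431). Hsbp1, which binds HSF1 and was the only gene of its list to be tested, stood at -0.04 (adjusted p = 0.889).

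Of the 7 small heat shock proteins 5 were positive and 2 negative, with a median of 0.05. Cryab, which guards desmin and actin filaments, stood at 0.63 (SD 0.27, limma adjusted p = 0.088), but at 0.16 with outlier-flagged spots kept, 0.13 in the processed signals and -0.03 without loess, where its direction turned. Without array 3 it was 0.76 (adjusted p = 0.0061 over the same probes, and 0.0557 over probes chosen on arrays 1 and 2). Hspb7, a cardiac and skeletal muscle form, had ratios of -0.35, -1.02 and -0.36 and a mean of -0.58 (SD 0.39, limma adjusted p = 0.159). Array 2 stood apart, and the mean was -0.35 without it and -0.69 without array 3 (adjusted p = 0.039 over the same probes, and 0.138 over probes chosen on arrays 1 and 2).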

How the data were processed

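Per the file headers, the deposited scanner files were written by Feature Extraction 12.0.3.1 and give the intensity of each spot in both channels, its local background, its flags, and a signal that the software background-subtracted and dye-normalised. Agilent Feature Extraction 11.5 is named in the submitters' processing notes. The deposited series matrix holds the authors' log10 ratio for each spot, used as an alternative, which equalled the ratio of KO over WT in the scanner files to within 0.0050. Per the labels' protocols, RNA was prepared with Trizol and amplified with a low-input labelling kit.

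Here, median spot intensities were corrected with normexp (offset 50) and loess in limma 3.58.1 (R 4.3.3, the data.table package, version 1.17.8). Control spots and outlier-flagged spots had weight 0, and the latter, 536, 572 and 1002 on arrays 1 to 3, were left out. No spot was saturated. Between 20.4% and 23.6% of 59305 spots were well above background. Testing needed a value on each of the 3 arrays and, in 1 of the channels, at least 50% of a probe's spots well above background on each, which left 8391 of 55681 probes. Names came from RefSeq (GRCm38.p6), with 28664 of 29472 accessions matched. A gene was its brightest tested probe. The mean log2 ratio over 3 arrays was tested against 0 with eBayes and Benjamini-Hochberg adjustment over 7424 genes. SDs are between arrays, and 3 arrays limit the precision of every value. The array pairs 1 KO with 1 WT sample, and all lay on 1 slide.

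Members and lists were chosen with earlier results of these data known. Values on every array were given for the tested member of largest absolute ratio in each class, for members of unadjusted p under 0.05 and for members whose probes differ by over 0.3, of which there were 0, and, of the other lists, for the 2 genes of smallest p their means. The steps were tested on simulated data. Alternatives changed the background correction, the normalisation, the source of the ratio, the filters, the moderation and the arrays used.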

Additional observations from a re-analysis of the deposited data

How the results depend on the processing

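Over all genes 3 passed in limma. The count was 25 with an offset of 16, 5 without background subtraction, 85 with robust trended moderation (41 higher, 44 lower), 62 with array weights (45 higher, 17 lower) and 2658 without loess (1014 higher, 1644 lower). It was 1 with scale normalisation, 1 with outlier-flagged spots kept and 1 with the mean of probes. It was 0 in limma with the processed signals (807 at an unadjusted p under 0.05), the series matrix (806), no filter (2468 of 36218) and a filter on both channels (935 of 6564). The fit of 6 channels without the replicate block, which ignores the pairing of samples on an array, gave 0 (236 at an unadjusted p under 0.05) and changed no sign among the members. Leaving out each array gave 9, 20 and 129 over the same probes, the last without array 3. With probes chosen on the remaining arrays, added after seeing the data, it gave 9, 16 and 0 (1320 of 9620 at an unadjusted p under 0.05 without array 3). A filter on every spot, also added, gave 7. The members called stayed at 0 except for 7 without loess. Other chaperone genes called were 1 with an offset of 16, 2 with robust moderation, 2 with array weights, 32 without loess and 0 to 4 when an array was left out. The members' median was 0.055 in the processed signals and 0.055 in the series matrix, -0.19 without loess and -0.06 to 0.02 when an array was left out. Of single members Bag1 alone changed sign where it passed, to -0.57 without loess. Mettl21c, whose KO signal was well above background on 1 array only, so that its size is not fixed, kept its direction, at -6.23 in the processed signals (adjusted p = 0.071), -6.22 in the series matrix, -2.45 without a filter (adjusted p = 0.172), -2.45 with 6 channels (adjusted p = 0.754) and -2.69 to -2.21 when an array was left out, with -2.44 without array 3 (adjusted p = 0.0557 over probes chosen on arrays 1 and 2). Apart from the smaller or larger sets of probes, the causes of these changes were not tested. Signal over background limited 10 members.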
